A study of Mus musculus with 2 samples.

Results

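Thyroid hormone activation was examined through 5 genes, Dio2, Dio3, Thra, Thrb and Klf9, of the 34285 genes counted in single cells of mouse molars. Each symbol matched 1 row of both count tables (Ensembl identifiers ENSMUSG00000007682, ENSMUSG00000075707, ENSMUSG00000058756, ENSMUSG00000021779 and ENSMUSG00000033863, in that order). Dio2 was selected on its own values in these data, since it leads a group of mesenchymal cells that carries dental follicle and periodontal ligament markers and is among the larger falls between the libraries, and the other 4 genes complete its pathway. All levels below are therefore a description. The cells came from mandibular first molars and the tissue around them at PN15.5 (PN, postnatal day), from C57BL/6J mice. The Lipo-Clo group had received intraperitoneal clodronate liposomes, which kill the phagocytes that take them up and so deplete macrophages, at 40 μg/g in 4 injections 3 days apart, the first on PN3.5 and the last on PN12.5. The control group, Lipo-PBS, had received liposomes without clodronate. Each condition is 1 library, so a difference between libraries cannot be told apart from one of treatment. The number of mice in a library is not given in the sources used here. No difference between Lipo-Clo and Lipo-PBS therefore has a replicate check or a p-value.

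Thyroid hormone circulates mostly as thyroxine (T4), a precursor that binds the nuclear receptors weakly. The deiodinases are selenoenzymes that set how much active hormone a cell sees. Type 2 deiodinase, encoded by Dio2, removes an outer-ring iodine from T4 to give the active hormone T3, whereas type 3 deiodinase, encoded by Dio3, removes an inner-ring iodine and inactivates both. T3 acts through the receptors TRα (Thra) and TRβ (Thrb), which sit on DNA with retinoid X receptors and exchange corepressors for coactivators when hormone binds. Klf9 encodes a Krüppel-like transcription factor and is a direct T3 target, although glucocorticoids induce it too. The dental follicle is the mesenchyme around the tooth germ from which the periodontal ligament, cementum and alveolar bone arise, and thyroid hormone has long been known to affect the timing of tooth eruption.

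The 150 bases before the start of Dio2 and of Dio3 are shown because the enzymes they encode act in opposite directions on the hormone and their levels here also moved in opposite directions. Both are RefSeq sequences on build GRCm38.p6, Dio2 at chr12:90739039-90739188 on the minus strand and Dio3 at chr12:110279080-110279229 on the plus strand. They are written 5′ to 3′ along the gene and end at the base before the start. Capitals mark the letters of a cAMP response element (TGACGTCA) and of a TATA box (TATAAA).
Dio2: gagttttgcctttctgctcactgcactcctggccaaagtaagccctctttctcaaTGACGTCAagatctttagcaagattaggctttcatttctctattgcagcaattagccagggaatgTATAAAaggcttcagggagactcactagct
Dio3: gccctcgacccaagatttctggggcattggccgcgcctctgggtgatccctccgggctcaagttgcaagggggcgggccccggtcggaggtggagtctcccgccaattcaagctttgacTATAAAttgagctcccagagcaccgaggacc

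Dio2 held the cAMP response element 95 to 88 bases before its start and TATAAA 30 to 25 bases before it. Dio3 held TATAAA 31 to 26 bases before its start, and its 250 bases held no TGACGTCA. Among 32851 RefSeq promoters of 250 bases, 1.55% held TGACGTCA, which reads the same on both strands, and 7.59% held TATAAA on the gene strand (12.4% on either strand). The GC content over 250 bases was 41.6% for Dio2 and 69.6% for Dio3, against a median of 52.4% over all promoters. Of the 2 Thrb promoters listed, 1 held AGGTCA, the hexamer to which thyroid hormone receptors bind, 184 to 179 bases before its start. The 250 bases of Dio2, Dio3 and Klf9 held no AGGTCA on either strand, and no promoter was listed for Thra. AGGTCA stood on either strand in 14.0% of all promoters. A match of letters is not a bound site, and its absence says only that these letters are not in the window.

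The deposited libraries held 9362 Lipo-Clo and 9653 Lipo-PBS cells with 31053404 and 30537834 unique molecular identifiers (UMIs, each counting 1 captured transcript molecule). After filtering, 8254 and 8261 cells remained, with medians of 2567 and 2678 UMIs, and 30 cell barcodes occurred in both libraries. The macrophage-like class had 127 Lipo-Clo and 175 Lipo-PBS cells. The cells formed 28 clusters with the 5 genes left out of the genes used for clustering. Dental mesenchyme, named from markers such as Col1a1, Dcn and Prrx1, took 9 clusters with 4086 Lipo-Clo and 3908 Lipo-PBS cells. A group of 894 cells stayed unnamed, most of them a cluster of 77 Lipo-Clo and 683 Lipo-PBS cells with markers of several lineages. Levels are in CPM (counts per 1000000, the UMIs of the gene over all UMIs of a group of cells), and a ratio is the log2 of the Lipo-Clo level over the Lipo-PBS level. Where values are given in pairs, that of Lipo-Clo comes first. Intervals are at the 95% level and cover counting error only.

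Dio2 was mainly a mesenchymal transcript. Dental mesenchyme held 5108 of its 6495 UMIs (78.6%, 77.6 to 79.6%), with 80.2% in Lipo-Clo and 78.1% in Lipo-PBS. The mesenchymal level was 104 CPM in Lipo-Clo (1393 UMIs, 98.8 to 110 CPM) and 289 CPM in Lipo-PBS (3715 UMIs, 280 to 299 CPM). Unnamed cells were at 244 and 161 CPM. Among them, a cluster of 134 cells led by Cxcl14, Dsc3 and Nppc, with 4 epithelial markers, stood at 364 and 369 CPM. Epithelium was at 26.3 and 65.2 CPM, and perivascular cells were at 11.2 and 30.2 CPM.

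In several blood and immune classes most Dio2 UMIs lay in a few cells that also held mesenchymal RNA. Neutrophils of Lipo-PBS stood at 128 CPM, but 55 of their 62 UMIs were in 3 of 197 cells. These 3 cells had a median of 38332 CPM summed over 9 mesenchymal markers, against 2022 CPM in the other neutrophils. B cells of Lipo-Clo showed the same arrangement, with 84 of 90 UMIs in 6 of 526 cells whose mesenchymal markers had a median of 88424 CPM against 1511 CPM in the rest. In dendritic-like cells of Lipo-PBS a Dio2 UMI was more widespread, in 31 of 233 cells (13.3%), and 62 of 88 UMIs were in 10 of them, with a median of 69652 CPM of these markers against 2562 CPM. Erythroid and dendritic-like cells of Lipo-Clo held no such cell, and their levels were 2.93 CPM (5 UMIs in 403 cells) and 3.21 CPM (8 UMIs in 389 cells). Epithelium differed between the libraries. In Lipo-PBS its 18 cells with at least 3 Dio2 UMIs, which held 118 of 155 UMIs, had a median of 23032 CPM of mesenchymal markers against 2543 CPM in the rest. In Lipo-Clo its 6 cells with at least 3 Dio2 UMIs had a median of 1871 CPM of mesenchymal markers, beside 1945 CPM in the other epithelial cells. The part of mesenchymal RNA in the Dio2 level of these classes was not tested.

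**Figure D1:**
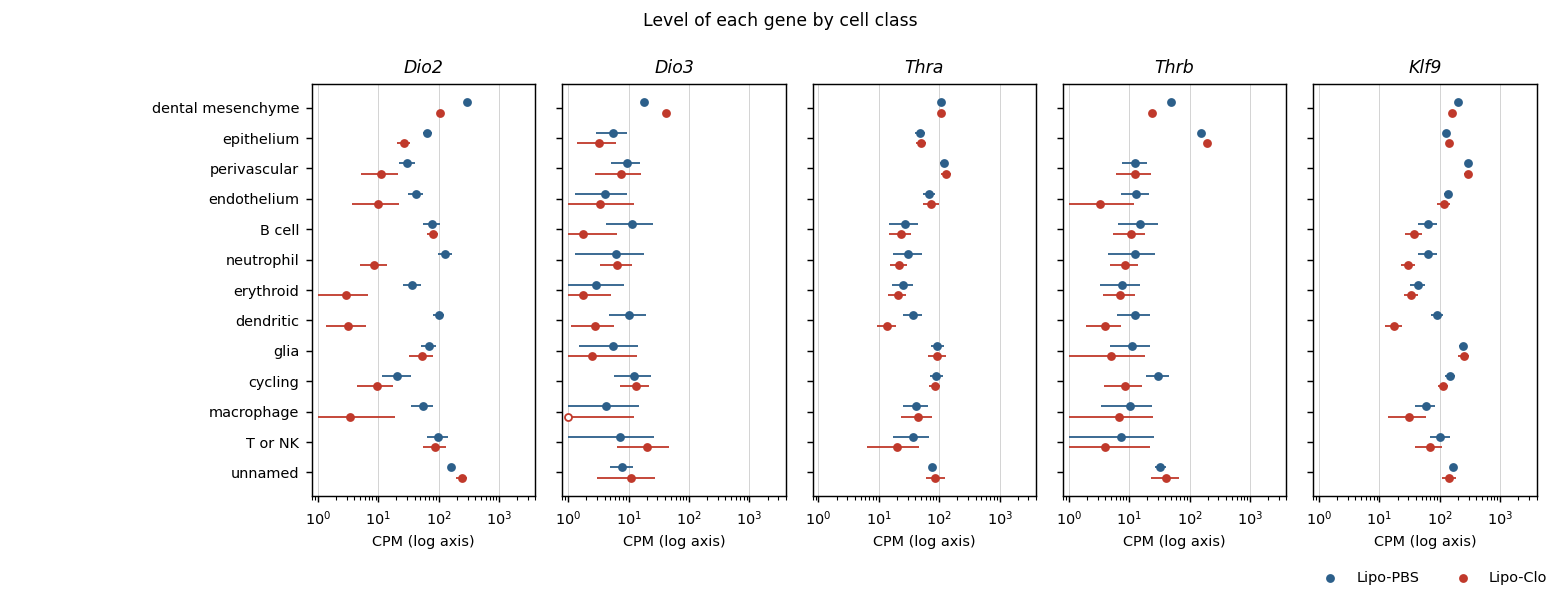
Level of each gene in CPM (log axis) by cell class, with Lipo-PBS and Lipo-Clo in separate colours. Points are levels of summed UMIs, bars are exact Poisson 95% intervals and open points mark a class without a UMI. Among named classes Dio2 and Dio3 are highest in dental mesenchyme, Thrb is highest in epithelium (195 and 154 CPM) and Klf9 is highest in perivascular cells (292 and 295 CPM).

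Dio3 was likewise mainly mesenchymal. Mesenchyme held 794 of 950 UMIs (83.6%, 81.1 to 85.9%), at 41.8 CPM in Lipo-Clo (559 UMIs, 38.4 to 45.4 CPM) and 18.3 CPM in Lipo-PBS (235 UMIs, 16.0 to 20.8 CPM). The highest level elsewhere was 19.96 CPM, from 5 UMIs in T or NK cells of Lipo-Clo. Macrophages of Lipo-Clo had no Dio3 UMI in 127 cells, and a count of 0 allows a level of up to 10.2 CPM at this depth. Erythroid cells, which stand here for free RNA, had 3 UMIs in each library. Beside the shares of Dio2 and Dio3, mesenchyme held 66.6% of Thra, 60.9% of Klf9 and 45.6% of Thrb UMIs over both libraries. Of the UMIs of all genes it held 13369085 of 26852423 in Lipo-Clo and 12848307 of 25831678 in Lipo-PBS.

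Thra was the broadest of the receptors. It was highest in perivascular cells (131 and 121 CPM), mesenchyme (108 and 109 CPM) and glia (92.6 and 93.5 CPM). The intervals of perivascular cells and mesenchyme overlapped in both libraries. Blood and immune classes lay between 13.6 and 44.1 CPM. Thrb had another order, with epithelium first at 195 CPM in Lipo-Clo (178 to 213 CPM) and 154 CPM in Lipo-PBS (138 to 170 CPM), and mesenchyme at 23.9 and 49.5 CPM. Within epithelium, the cluster led by the enamel matrix genes Odam, Ambn and Amelx stood at 260 and 270 CPM, and the cluster led by Lgals7 and the keratins Krt14 and Krt15 at 65.3 and 84.1 CPM. Perivascular cells, endothelium and glia lay between 3.35 and 13.0 CPM for Thrb. Klf9 was found in every class, most in perivascular cells (292 and 295 CPM) and glia (248 and 244 CPM), whose intervals overlapped, followed by mesenchyme (161 and 202 CPM).

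Between the libraries, Dio2 in mesenchyme was 2.78-fold lower in Lipo-Clo, a log2 ratio of −1.47 (−1.56 to −1.38). Its ratio had rank 83 from the lowest among 13004 genes with at least 50 UMIs in mesenchyme. Of these genes 7.31% were lower in Lipo-Clo by at least 1.5-fold and 3.43% were higher. A Dio2 UMI was found in 6.17% of Lipo-Clo and 12.9% of Lipo-PBS mesenchymal cells, or 4.13% and 9.39% after thinning each cell to 1000 UMIs. Erythroid cells, which should lack the gene, had a Dio2 UMI in 1.24% and 4.01% of cells at medians of 3633 and 3244 UMIs, against mesenchymal medians of 2786.5 and 2945.5 UMIs. Cells with the transcript also held less of it, with a mean of 5.53 UMIs in the 252 positive Lipo-Clo cells and 7.34 UMIs in the 506 positive Lipo-PBS cells. More than 5 UMIs were found in 73 Lipo-Clo and 192 Lipo-PBS cells, and the highest cells had 44 and 64.

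Dio3 moved the other way. It was 2.29-fold higher in Lipo-Clo mesenchyme, a log2 ratio of 1.19 (0.97 to 1.42), and 99.6% of the genes in use had a lower ratio. A Dio3 UMI was found in 8.22% of Lipo-Clo and 4.40% of Lipo-PBS mesenchymal cells (3.99% and 1.98% after thinning), against 0.744% and 0.730% of erythroid cells. Thrb was 2.07-fold lower in Lipo-Clo, at −1.05 (−1.25 to −0.86), with rank 231 from the lowest. Thra was level between the libraries, with 1450 and 1397 UMIs and a log2 ratio of −0.0036 (−0.11 to 0.10). Klf9 was lower in Lipo-Clo by less than the 1.5-fold limit, with 2151 and 2590 UMIs and a log2 ratio of −0.33 (−0.41 to −0.24). The 5 genes thus fell on both sides of the limit: the activating enzyme and TRβ were below it, the inactivating enzyme was above it, and TRα and Klf9 were inside.

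Mesenchyme was then divided into 12 states by clustering it alone, again without the 5 genes, and Dio2 was concentrated in a pair of them. A state of 701 cells whose leading genes after Dio2 were Mmp11, Lgals3 and Col18a1 stood at 1101 CPM in Lipo-Clo (707 UMIs, 1021 to 1185 CPM) and 1861 CPM in Lipo-PBS (2901 UMIs, 1794 to 1930 CPM). A state of 660 cells led by Moxd1, Apcdd1 and Bmp3 stood at 285 CPM in Lipo-Clo (567 UMIs) and 699 CPM in Lipo-PBS (346 UMIs). These states held 4 and 5 of the 7 dental follicle markers, more than any other state, but also 6 and 4 of the 8 periodontal ligament markers, so the markers did not separate follicle from ligament. Together they made up 17.9% of Lipo-Clo and 16.1% of Lipo-PBS mesenchymal cells and held 91.5% and 87.4% of the mesenchymal Dio2 UMIs. A Dio2 UMI was present in 38.6% of Lipo-Clo and 56.1% of Lipo-PBS cells of the Mmp11 state, and in 24.1% and 45.5% of cells of the Moxd1 state.

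Outside this pair every state had a lower Dio2 level in each library. A state led by haemoglobin genes, which mesenchyme does not make, had 30.8 CPM in Lipo-Clo (13 UMIs) and 226 CPM in Lipo-PBS (213 UMIs). A state led by Abi3bp and Fmod had 35.2 and 100 CPM, and odontoblast-like cells led by Dspp had 41.6 and 53.5 CPM. The other 7 states lay between 0.699 and 40.5 CPM in Lipo-Clo and between 4.26 and 22.4 CPM in Lipo-PBS. Of all 12, only a fibroblast-like state with Ccl19 and Gdf10 had the higher level in Lipo-Clo, from 15 and 2 UMIs. In the states led by Lrrc4c, Ctnnd2 and Sfrp2, which hold papilla or pulp markers, 0.263 to 1.44% of Lipo-Clo and 0.885 to 3.05% of Lipo-PBS cells had a Dio2 UMI. The share exceeded that of erythroid cells only in the Lrrc4c state of Lipo-Clo, beside 5 of 403 erythroid cells, and this small difference was not tested. In Lipo-PBS 11 of 274 erythroid cells had a Dio2 UMI, but 30 of their 38 UMIs lay in 3 cells. These 3 had a median of 41735.5 CPM of mesenchymal markers, against 1509 CPM in the other erythroid cells.

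**Figure D2:**
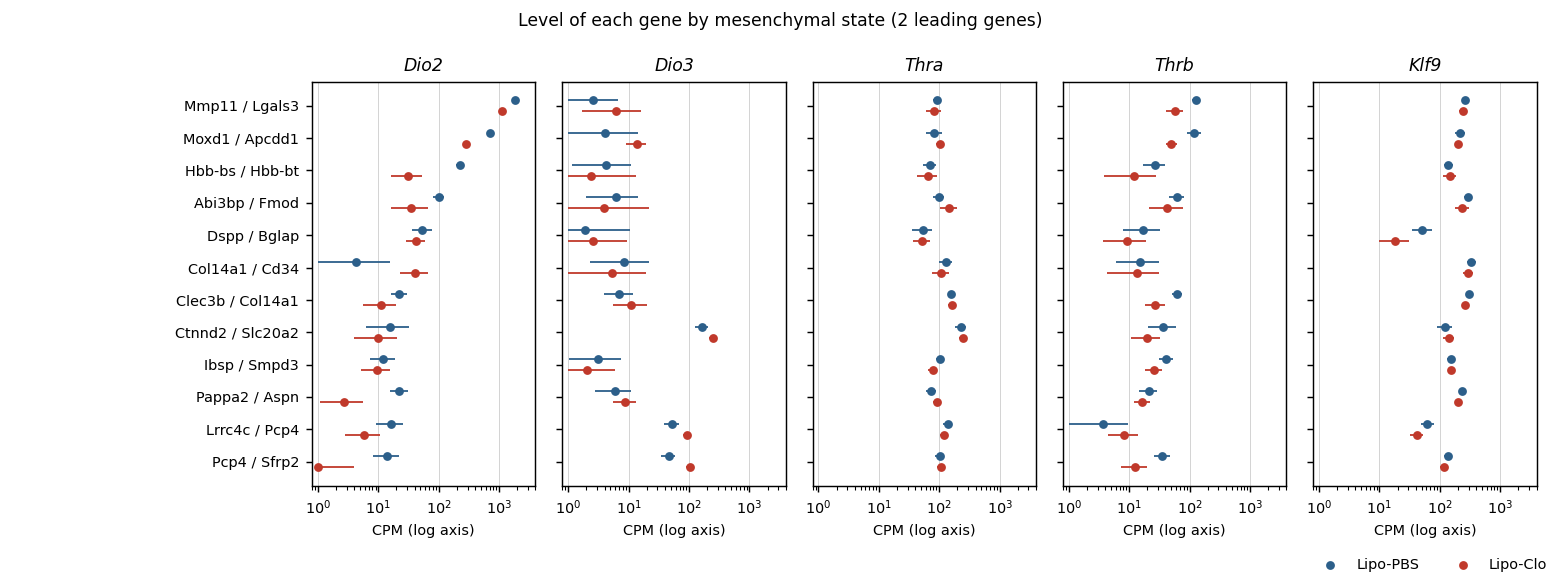
Level of each gene in CPM (log axis) in 12 mesenchymal states, each labelled by leading genes other than the 5 shown and ordered by the Dio2 level, with exact Poisson 95% intervals for each library. Values under 1 CPM are drawn at 1. Dio2 peaks in the Mmp11 and Moxd1 states, where Dio3 lies between 2.57 and 13.6 CPM, and Dio3 peaks in the Ctnnd2, Lrrc4c and Sfrp2 states, where Dio2 is at most 16.0 CPM.

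The Mmp11 and Moxd1 states were split largely by library, with 207 Lipo-Clo and 494 Lipo-PBS cells in the former and 526 and 134 in the latter. Within the Mmp11 state the Dio2 ratio was −0.76 (−0.88 to −0.64), where 17.5% of 5874 genes were lower by 1.5-fold and 4.26% higher. Within the Moxd1 state it was −1.30 (−1.49 to −1.10). With both states joined, Dio2 was 484 CPM in Lipo-Clo (1274 UMIs in 733 cells) and 1581 CPM in Lipo-PBS (3247 UMIs in 628 cells), 3.27-fold lower at −1.71 (−1.80 to −1.62). Of 8370 genes in the joined states 14.8% were lower by 1.5-fold and 4.83% higher. Other ways of drawing the state with the highest Dio2 level gave ratios from −2.04 to −0.46. The cluster of all cells that held Grem1, Mmp11 and Moxd1, with 502 Lipo-Clo and 487 Lipo-PBS cells, had 670 and 2010 CPM and a ratio of −1.59 (−1.68 to −1.49). When genes past the limit were kept out of the clustering into states, the state of 582 Lipo-Clo and 476 Lipo-PBS cells led by Moxd1 and Col18a1 had 531 and 1948 CPM and a ratio of −1.87 (−1.97 to −1.78). In the remaining 10 states joined, Dio2 was 11.1 and 43.4 CPM, a ratio of −1.97 (−2.27 to −1.67). Of the 468 Lipo-PBS UMIs there, 213 lay in the haemoglobin state (88 and 250 cells) and 82 in the Abi3bp state (96 and 281 cells). The interval of the ratio included 0 in the Ibsp, Ctnnd2 and Dspp states and lay above 0 in the Ccl19 state. In the others of these 10 states it lay below 0.

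Since the states differed in size between the libraries, the ratios were computed again after giving each state the same weight in both libraries. Over all genes in use, 5.62% were then lower by 1.5-fold and 2.47% higher. Dio2 went from −1.47 to −0.96, and the mixture alone gave −0.47. This split depends on how the Mmp11 and Moxd1 states are drawn: with states formed without the genes past the limit, the same-mixture ratio was −1.73 and the mixture alone gave 0.27. Dio2 remained past the 1.5-fold limit in both cases. Dio3 went to 0.82 and 0.93, Thrb to −0.96 and −0.99, and Klf9 to −0.16 and −0.20 under these weightings. Thra stayed level, at 0.03 and 0.04.

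**Figure D3:**
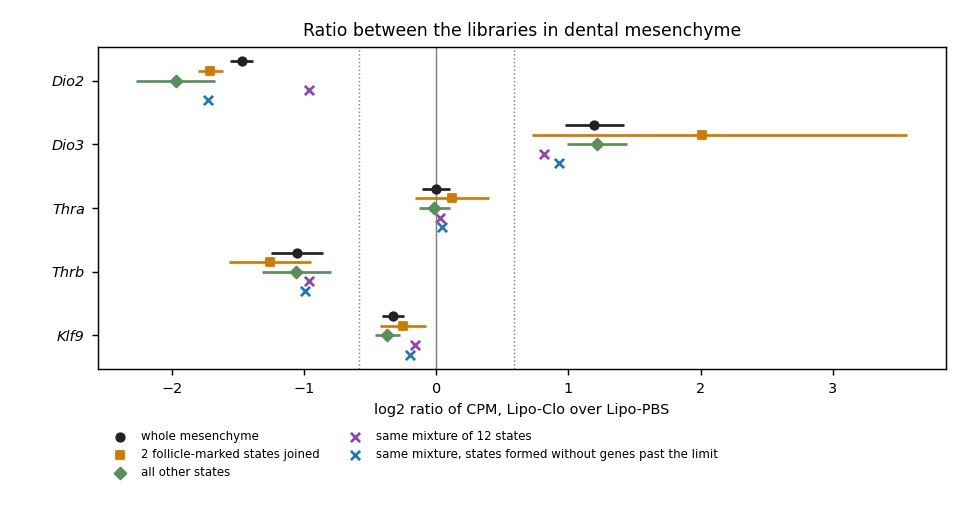
Log2 ratio of Lipo-Clo over Lipo-PBS for each gene in all mesenchyme, in the Mmp11 and Moxd1 states joined and in all other states, with 95% counting intervals. Crosses give both libraries at the same mixture of states, and dotted lines mark 1.5-fold. Dio2 and Thrb lie below the lower line in each grouping, Dio3 lies above the upper line (with 31 and 6 UMIs in the joined states), and Thra and Klf9 lie between the lines.

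Dio3 occupied other states than Dio2. The Ctnnd2 and Slc20a2 state had 251 CPM in Lipo-Clo (179 UMIs) and 162 CPM in Lipo-PBS (72 UMIs). The Pcp4 and Sfrp2 state had 104 CPM (149 UMIs) and 46.1 CPM (59 UMIs), and the Lrrc4c and Pcp4 state had 92.5 CPM (157 UMIs) and 51.7 CPM (55 UMIs). These states, which held 6, 3 and 6 of the 8 dental papilla or pulp markers, carried 31.6%, 26.2% and 26.7% of the mesenchymal Dio3 UMIs. In each of them Dio3 was higher in Lipo-Clo, with log2 ratios of 0.63 (0.23 to 1.04), 1.18 (0.73 to 1.64) and 0.84 (0.39 to 1.31). The other 9 states had at most 13.6 CPM. Among them, odontoblast-like cells, which also held 3 of the papilla or pulp markers, had 2.60 and 1.91 CPM of Dio3 (2 and 1 UMIs). Of the mesenchymal Dio2 UMIs, in contrast, 88.5% lay in the Mmp11 and Moxd1 states, which held 4.66% of those of Dio3.

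Dio3 belongs to the Dlk1-Dio3 imprinted cluster, from which Meg3, Rian and Mirg are expressed as non-coding RNAs of the maternal copy. None of its 4 other members in use was past the limit, beside 7.31% lower and 3.43% higher over all genes in use. So short a list would often hold none. The ratios were 0.06 for Meg3, −0.10 for Dlk1, −0.17 for Mirg and −0.27 for Rian. Dio3os, the antisense transcript of Dio3, had 23.6 and 16.8 CPM, a ratio of 0.49 (0.24 to 0.75). At the same mixture of states the Dio3os ratio was 0.10. The strand setting of the counting is not given in the sources used here. Whether reads of Dio3 and Dio3os were separated by strand where they overlap is therefore not known here.

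Thrb shared with Dio2 the Mmp11 and Moxd1 states. In the Mmp11 state it had 57.6 CPM in Lipo-Clo (37 UMIs) and 126 CPM in Lipo-PBS (196 UMIs), and in the Moxd1 state 50.2 CPM (100 UMIs) and 119 CPM (59 UMIs). These levels did not differ between the states beyond their intervals. Joined, they held 41.0% of mesenchymal Thrb UMIs, with a ratio of −1.26 (−1.57 to −0.95). Thrb was also found in the Clec3b and Col14a1 fibroblast-like state, at 27.3 and 62.7 CPM (−1.20, −1.86 to −0.59), and in the Abi3bp and Fmod state, at 43.1 and 61.1 CPM. Of 12 states 11 had the lower Thrb level in Lipo-Clo. The exception was the Lrrc4c state, with 14 and 4 UMIs. The interval of the Thrb ratio lay below 0 in the Mmp11, Moxd1, Clec3b and Sfrp2 states and in the state led by Ibsp and Smpd3. In all other states it included 0.

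Thra did not follow Dio2. It was highest in the Ctnnd2 state, at 248 and 226 CPM, and next in the Clec3b state, at 165 and 159 CPM. The Mmp11 state had 81.0 and 92.4 CPM, and odontoblast-like cells had the lowest level, at 52.0 and 53.5 CPM. Nr1d1, which overlaps the end of Thra on the opposite strand, had a ratio of −0.37 (−0.58 to −0.17). Whether reads from their overlap were separated by strand is likewise not known here.

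Klf9 was widespread in mesenchyme. It was highest in the fibroblast-like states, at 294 and 334 CPM in the Ccl19 state and at 266 and 302 CPM in the Clec3b state, and was 243 and 261 CPM in the Mmp11 state. It was lowest in odontoblast-like cells, at 18.2 CPM (14 UMIs) and 51.6 CPM (27 UMIs), and in the Lrrc4c state, at 41.2 and 62.1 CPM. Within the Mmp11 and Moxd1 states the ratio was −0.10 in each (−0.38 to 0.17 and −0.42 to 0.22), and joined it was −0.25 (−0.43 to −0.07). Klf9 was thus inside the 1.5-fold limit within each state, with intervals that included 0, whereas Dio2 and Thrb were past the limit. In the cluster of all cells that held Grem1, Mmp11 and Moxd1, Klf9 was 219 and 263 CPM. Its ratio there was −0.27 (−0.46 to −0.07).

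Cells with a Dio2 UMI were compared with the other mesenchymal cells of their own library. In Lipo-Clo, Thrb was 66.8 CPM in the 252 cells with Dio2 and 20.5 CPM in the 3834 without, and in Lipo-PBS it was 108 CPM in 506 cells and 40.2 CPM in 3402 cells. Klf9 was also higher in cells with Dio2, at 248 against 154 CPM in Lipo-Clo and 253 against 193 CPM in Lipo-PBS. Dio3 was lower, at 9.25 against 44.4 CPM and 3.95 against 20.6 CPM, and so was Thra, at 84.3 against 110 CPM and 81.8 against 113 CPM. Cells with Dio2 were somewhat deeper, with medians of 3583 against 2727.5 UMIs in Lipo-Clo and 3183 against 2913 UMIs in Lipo-PBS. Within the Mmp11 state alone Thrb was 103 against 26.3 CPM in Lipo-Clo but 137 against 111 CPM in Lipo-PBS, where the intervals overlapped. Dio3 was not lower in cells with Dio2 there, at 7.64 against 5.26 CPM (2 and 2 UMIs) and 4.49 against 0 CPM (4 and 0 UMIs). Thra was 76.4 against 84.1 CPM and 91.0 against 94.2 CPM, with overlapping intervals. Klf9 was 283 against 216 CPM, with overlapping intervals, and 300 against 209 CPM. The cells of a library are not replicates, and these values describe 2 libraries.

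**Figure D4:**
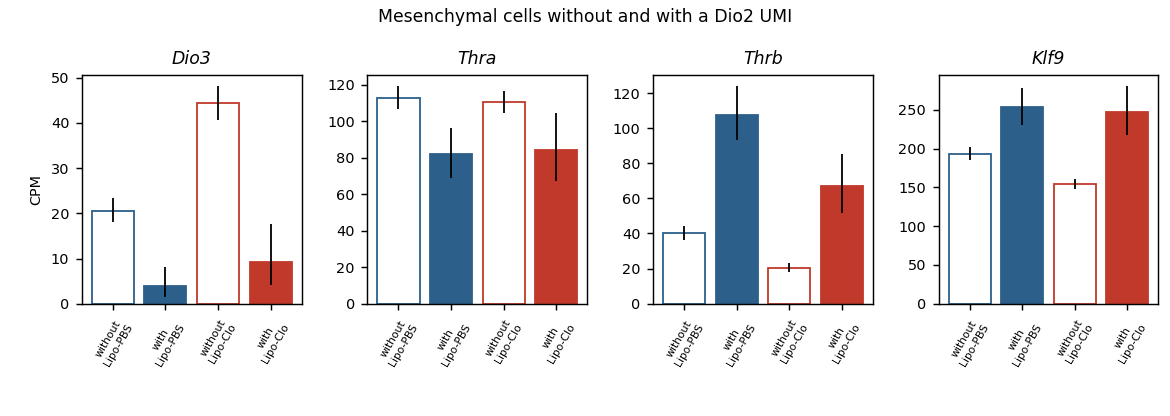
Level in CPM of Dio3, Thra, Thrb and Klf9 in mesenchymal cells without and with a Dio2 UMI, for each library, with exact Poisson 95% intervals. In both libraries cells with Dio2 have more Thrb and Klf9 and less Dio3 and Thra over all mesenchyme. Within the Mmp11 state alone (not drawn) Dio3 was not lower in cells with Dio2, and the Thra intervals overlapped.

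The wider pathway was read from a list of 45 thyroid hormone genes, of which 40 were in use in mesenchyme. Dio1, the liver and kidney deiodinase, had no UMI, and Slco1c1, Rxrg, Thrsp and Ppargc1a had 12 to 42 UMIs. Of the 40 genes, 3 were lower in Lipo-Clo past 1.5-fold (Dio2, Thrb and Slc16a10) and 1 was higher (Dio3), beside the 7.31% and 3.43% of all genes given above. The median ratio was −0.19 over the 40 genes and −0.02 over all genes in use. Slc16a10, which encodes the aromatic amino acid and thyroid hormone transporter MCT10, had 5.91 CPM in Lipo-Clo (79 UMIs) and 11.9 CPM in Lipo-PBS (153 UMIs), a ratio of −1.01 (−1.42 to −0.61). At the same mixture of states its ratio was −0.50, inside the limit.

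No other role had a member past the limit. The counts of lower genes below stand beside 6738 of the 13004 genes in use with ratios below 0. The receptor partners Rxra and Rxrb had ratios of 0.16 and 0.01. Of the corepressors 5 of 6 were lower and 1 was higher (Hdac3, 0.27), and of the coactivators 4 of 6 were lower, from −0.34 for Ncoa2 to 0.06 for Ncoa3. The 4 genes that add or remove ubiquitin on type 2 deiodinase protein (Wsb1, March6, Usp20 and Usp33) lay between −0.39 and −0.22. Of 5 genes for selenoprotein synthesis, on which both deiodinases depend, 1 was lower (Sepsecs, −0.53) and 4 were higher, up to 0.39 for Pstk. The 7 hormone-responsive genes in use ran from −0.33 for Atp2a2 to 0.24 for Bcl3, with 6 lower. Of these 6, Klf9 and Atp2a2 had intervals below 0. The intervals of Hr, Me1, Gpd2 and Rcan2 included 0, as did that of Bcl3. At the same mixture of states Klf9 was at −0.16, Atp2a2 at −0.19 and Hr above 0, at 0.06. Me1 and Gpd2 were each at −0.26, Rcan2 was at −0.21 and Bcl3 at 0.30.

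**Figure D5:**
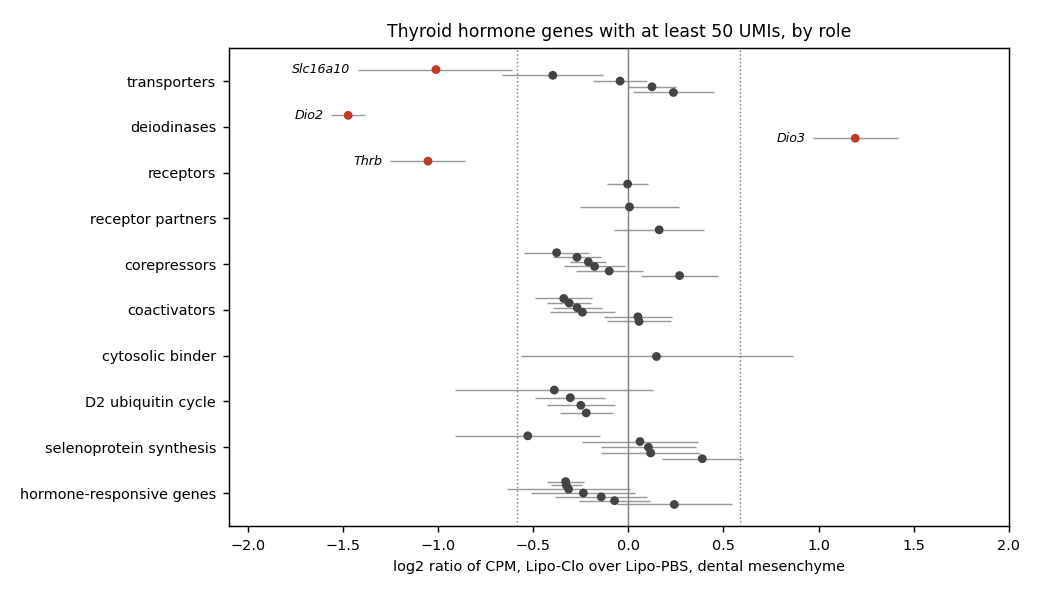
Log2 ratio of Lipo-Clo over Lipo-PBS in mesenchyme for the 40 thyroid hormone genes in use, grouped by role, with 95% counting intervals and dotted lines at 1.5-fold. Dio2, Thrb and Slc16a10 lie past the lower line and Dio3 past the upper line.

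Klf9 was set beside genes that share its other inducers or its family. The counts below stand beside the 7.31% lower and 3.43% higher over all genes in use. Of 7 glucocorticoid-responsive genes 1 was past the limit, Fkbp5, at 39.9 and 24.1 CPM, a ratio of 0.72 (0.52 to 0.93). All 8 other Krüppel-like genes listed had ratios below 0, as had 6738 of the 13004 genes in use, and 1 was past the limit (Klf5, −0.85). The shared direction did not hold at the same mixture of states, where Klf2 (0.24), Klf10 (0.11), Klf4 (0.02) and Klf7 (0.01) were above 0. Of 10 immediate early and dissociation genes 1 was past the limit, Atf3 at −0.79, and at the same mixture of states its ratio was −0.13. Of 7 cAMP-responsive genes, listed because cAMP is known to induce Dio2, 2 were lower past the limit, Nr4a2 at −0.61 and Pde4b at −0.82. At the same mixture Nr4a2 was inside the limit, at −0.57, and Pde4b was at −0.78.

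The genes whose level most resembled that of Dio2 over the 12 states in each library (24 points, Pearson's r of log2(CPM + 10)) were Mmp11 (0.92), Il1rl1 (0.91), Dclk3 (0.90), Itga11 (0.88) and Cdh13 (0.88). Mmp11 encodes a matrix metalloproteinase, Il1rl1 the interleukin-33 receptor ST2, Itga11 a collagen-binding integrin subunit and Cdh13 T-cadherin. Points of 1 library share its depth and free RNA, and the pattern rests mainly on the Mmp11 and Moxd1 states. Their mesenchymal ratios ranged widely, from −1.37 for Il1rl1, −0.91 for Mmp11 and −0.63 for Dclk3 to −0.15 for Itga11 and −0.03 for Cdh13.

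Other RNA in mesenchyme also differed between the libraries. All 8 neutrophil markers were higher in Lipo-Clo mesenchyme (648 CPM summed against 186 CPM), and none of 6 erythroid markers was (23100.5 against 50553 CPM). Macrophage markers were at 16.2 and 20.2 CPM, endothelial markers at 19.5 and 34.4 CPM (0 of 7 higher in Lipo-Clo) and glial markers at 21.3 and 32.8 CPM (1 of 7 higher), and mitochondrial UMIs were 0.391% and 1.64% of the total. In the Mmp11 state the neutrophil markers stood at 444 and 92.4 CPM, the erythroid markers at 4756 and 10674 CPM, the perivascular markers at 173 and 354 CPM and the macrophage markers at 10.9 and 28.2 CPM, with 0.331% and 1.74% mitochondrial UMIs. Unlike in all mesenchyme, the glial sum was higher in Lipo-Clo in this state, at 35.8 and 12.8 CPM (2 of 7 markers higher). The endothelial sum was at 35.8 and 24.4 CPM (2 of 7 higher), a ratio of 0.55 (−0.26 to 1.34). Without mitochondrial, haemoglobin and ribosomal protein genes in the totals, the Dio2 ratio in mesenchyme was −1.50. The part of the other differences in these results was not tested.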

How the data were processed

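Single cells of mandibular first molars with surrounding tissue were measured in 1 Lipo-Clo and 1 Lipo-PBS library. The authors deposited raw UMI counts per gene and cell. The matrix header names Cell Ranger 8.0.0, whereas the submitters' processing notes list Cell Ranger 3.1.0, Seurat 3.1.1 and the builds GRCm39 and mm39. No genome of that build was used here, and gene positions are not printed.

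The cell filter required 200 genes or more and no more than 20% mitochondrial UMIs. Scrublet's automatic threshold marked 0 and 1 cells, so the cells with the highest doublet scores (632 and 633) were removed instead. Counts scaled to 10000 were clustered with scanpy 1.11.5 and leidenalg 0.10.2 (2000 variable genes without the 5 genes, 30 components, 20 neighbours, resolution 1), and mesenchyme alone with 20 components at resolution 0.6. Clusters were named from at least 3 markers, and details of the naming rule were settled after marker levels were seen. Genes in use had at least 50 UMIs in mesenchyme over both libraries, and called means past 1.5-fold.

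Levels have exact Poisson intervals, shares exact Clopper-Pearson intervals and ratios exact conditional binomial intervals. PCR duplicates are collapsed by UMI, but cells are not replicates and no test was run. Factors of edgeR 4.0.16 and DESeq2 1.42.0 served as alternative scalings. The genes and lists were chosen with earlier results of these data known. All 5 genes, every listed gene past 1.5-fold, and the 5 genes most like Dio2 were to be named, and the genes named besides these were chosen after their values were seen. Values of some listed genes are not reported here.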

Additional observations from a re-analysis of the deposited data

Results flagged for a closer look

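The pooled ratio of Dio2 had opposite signs in unnamed and dendritic-like cells. Its log2 ratio of Lipo-Clo over Lipo-PBS was 0.60 (0.26 to 0.93) in unnamed cells and −4.97 (−6.23 to −3.93) in dendritic-like cells, and the difference was not tested. Unnamed cells join 2 clusters in unequal shares, and within these the ratio was 0.06 (−0.53 to 0.59) and −0.02 (−0.52 to 0.47). In dendritic-like cells the Lipo-PBS level of 101 CPM rests on 31 cells, of which 10 hold 62 of the 88 UMIs. The other genes were also lower in dendritic-like cells of Lipo-Clo. Their ratios were −2.39 for Klf9, −1.43 for Thra and, from fewer than 50 UMIs each, −1.88 for Dio3 and −1.65 for Thrb.

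Thrb likewise had a ratio of 0.34 (0.14 to 0.54) in epithelium and −1.05 (−1.25 to −0.86) in mesenchyme, and this difference was not tested. The epithelial value pools the Odam cluster, with 606 Lipo-Clo and 336 Lipo-PBS cells, and the Krt14 cluster, with 182 and 381 cells. Within them the ratio was −0.05 (−0.28 to 0.18) and −0.36 (−0.85 to 0.10).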

How the results depend on the processing

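No paired analysis was possible because Lipo-Clo and Lipo-PBS are 1 library each. Of the 5 genes, those past 1.5-fold in mesenchyme (Dio2, Dio3 and Thrb) kept their direction under every alternative run. The other genes named past the limit were recomputed only at the same mixture of states. The Dio2 ratio of −1.47 in mesenchyme stayed between −1.52 and −1.40 under 12 alternatives and moved under 4: −0.96 at the same mixture of states, −1.73 at the same mixture with states formed without genes past the limit, −1.34 with the cluster of several lineages counted as mesenchyme, and −1.66 as a mean over cells. At these mixtures Dio3 (1.19) went to 0.82 and 0.93 and Klf9 (−0.33) to −0.16 and −0.20, and otherwise they lay between 1.14 and 1.39 and between −0.36 and −0.29. Thrb lay between −1.09 and −0.91 and Thra between −0.03 and 0.10, so the sign of Thra was not fixed. The state with the highest Dio2 level (1639 CPM, 70.6% of mesenchymal Dio2 UMIs, ratio −0.76) depended on how states were drawn: 1263 CPM, 89.1% and −2.04 with the 5 genes kept among the variable genes, 1343 CPM, 89.3% and −1.70 at resolution 0.3, 2661 CPM, 69.0% and −0.46 at resolution 1, 1136 CPM, 87.2% and −1.87 without genes past the limit, 1185 CPM, 86.0% and −2.01 with doublets kept, 964 CPM, 88.5% and −1.71 with the Mmp11 and Moxd1 states joined, and 1291 CPM, 89.5% and −1.59 with clusters of all cells. At resolution 1 Dio2 was thus inside the limit within its top state. Thinning to 1000 UMIs, which leaves out shallower cells, raised the mesenchymal level over both libraries from 195 to 224 CPM for Dio2, from 30.3 to 35.9 CPM for Dio3, from 109 to 118 CPM for Thra, from 36.4 to 42.7 CPM for Thrb and from 181 to 199.97 CPM for Klf9. Thinning also gives each cell kept the same weight, whereas the main levels sum UMIs over cells. The part of each change in these shifts was not tested. The list counts of 3 lower and 1 higher include Dio2, Thrb and Dio3, which were chosen with earlier results of these data known. The counts became 4 and 1 with a minimum of 20 UMIs (9.40% and 5.45% of all genes). They were 2 and 1 at the same mixture (5.62% and 2.47%), and 3 and 1 with a limit of 2-fold (2.08% and 0.738%) or TMM factors (6.99% and 3.75%). Joined states, clusters of all cells, the cluster of several lineages or cycling cells counted as mesenchyme, the 5 genes kept in the clustering of all cells, and the mixture without genes past the limit were chosen after seeing the data. Depth limits genes with few UMIs, such as Dio3 outside the Ctnnd2, Sfrp2 and Lrrc4c states.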

Other observations

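Hormone-responsive genes differed in how they stood in the Mmp11 state, which has the highest Dio2 level. Atp2a2, which encodes the calcium pump SERCA2, was at 229 CPM there against 123 CPM in all other states together. Bcl3 was at 32.3 against 12.4 CPM. Gpd2, which encodes mitochondrial glycerol-3-phosphate dehydrogenase, was at 24.5 against 16.6 CPM. Atp2a2, Bcl3 and Gpd2 each had rank 2 of the 12 states. Klf9 was at 256 against 174 CPM with rank 4. Hr (13.6 against 12.4 CPM), Me1 (34.5 against 37.1 CPM) and Rcan2 (12.7 against 22.9 CPM) had rank 5. The 7 cAMP-responsive genes listed beside Dio2 also differed. Crem had its highest level of the 12 states there (47.2 against 30.6 CPM), Nr4a2 and Pde4b had rank 2 and Nr4a1 rank 3. Pde4d and Sik1 had rank 5, and Per1 had rank 9 and a lower level than elsewhere (41.8 against 49.3 CPM). These values sum both libraries, and the state holds 494 Lipo-PBS and 207 Lipo-Clo cells, so a gene that is lower in Lipo-Clo, such as Atp2a2 (−0.33), is weighted towards its Lipo-PBS level there. The genes were read after the state was known to lead in Dio2.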
